A study of Mus musculus with 4 samples.

Results

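The genes described here are 10 genes that mark the epithelial or the mesenchymal state of a cell, taken by their symbols from the 55450 genes of the deposited matrix. All 10 symbols were found, each once. 5 of them are epithelial, namely Epcam, Cdh1, Cldn3, Cldn4 and Cldn7, and 5 are mesenchymal, namely Vim, Cdh2, Zeb1, Zeb2 and Snai2. Their levels were followed across 3094 tumour cells, 2058 fibroblast-like cells and 12 other cell types of 4T1 tumours.

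Epithelial cells hold to their neighbours through the cell-cell adhesion molecule E-cadherin (Cdh1), the surface glycoprotein EpCAM (Epcam) and the claudins (Cldn3, Cldn4, Cldn7), which seal tight junctions. Mesenchymal cells carry the intermediate filament vimentin (Vim), and often N-cadherin (Cdh2) in place of E-cadherin. The zinc-finger repressors Zeb1, Zeb2 and Slug (Snai2) bind E-box sequences in the promoters of epithelial genes and turn them down during the epithelial-mesenchymal transition, in which carcinoma cells can stop at states that hold genes of both kinds.

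The droplet method of 10x Genomics counts each transcript molecule of a single cell by a unique molecular identifier (UMI). The study asked how the immune cells of a tumour change after TIOs, macrophage-derived particles that lyse cancer cells under near-infrared (NIR) light. The 4 samples came from female BALB/c mice, aged 6 to 8 weeks, that carried 1000000 4T1 cells, a mouse mammary carcinoma line, in the right flank. All received an intravenous injection on day 7, of PBS in 2 samples and of TIOs in 1 (TIOs+NIR), then 980 nm light at 1.0 W/cm2 for 5 min on each of days 8, 9 and 10, and tumours were taken on day 13. The title of the remaining sample names PBS and its protocol TIOs, so it was left without a group. By the methods, cells were sorted for CD45, the leucocyte protein encoded by Ptprc, which carcinoma cells and fibroblasts lack. Carcinoma cells and fibroblasts are therefore cells that this sort would remove. A missing Ptprc UMI alone does not show that a cell lacks CD45, since 69.4% of neutrophil-like cells carried such a UMI.

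The matrix held 33064 barcodes from 4 libraries of 69255999 to 108646352 UMIs, and 32133 cells had at least 300 genes and at most 15% mitochondrial UMIs. No source used here links a library to a sample. The cells were therefore taken as 1 pooled sample, without any comparison of treatments or p-value, and libraries 1 to 4 are given one by one as samples of unknown treatment. Of the barcode sequences, 101 of 32963 (0.306%) occurred in more than 1 library, and 23 tumour cells (0.743%) carried such a barcode.

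Tumour cells were the cells with at least 0.2% of their UMIs from Krt8 and Krt18, the keratins of simple epithelium, no Ptprc UMI and at least 5000 UMIs. They stood almost wholly in 1 library, with 2992 in library 1, 102 in library 2 and 0 in libraries 3 and 4. The further epithelial genes Krt7, Krt19, Spint2 and Perp, kept as a check, were each at least 2-fold higher in them than in the median of the other types. Krt7 and Spint2 were highest in tumour cells, but Krt19 in the 26 B cell-like cells and Perp in keratinocyte-like cells. Fibroblast-like cells, gated by the collagen genes Col1a1, Col1a2 and Col3a1, numbered 120, 1056, 471 and 411 in libraries 1 to 4 and passed 7 of 7 checks. Other types were gated by their own markers, no member served in any gate, and 19617 cells received 1 of the 14 types, while 11991 passed no gate and 525 passed several.

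Promoter sequences of the epithelial members are shown first because these genes moved together in the tumour cells, as described below. RefSeq promoter windows (GRCm38.p6, 250 bases before to 50 after the start) were at hand for 6 of the 10 members. They were searched for the 6-letter E-box CACCTG on both strands, the letters that Zeb and Snail proteins are known to bind, whose reverse complement is CAGGTG. A match was present for 4 of 4 epithelial members with a window and 0 of 2 mesenchymal ones (Vim and the 4 windows of Zeb2), against 22.6% of 27025 genes. Epcam, Cldn4 and Cldn7 had 2 matches in 1 window, which 3.32% of genes had. Epcam lies at chr17:87635979-87651129 on the plus strand, and its 250 bases before the start (chr17:87635729-87635978) hold matches that begin at -187 and -19 from the start. Cldn4 lies at chr5:134945119-134946934 on the minus strand, and its 250 bases before the start (chr5:134946935-134947184) hold a match at -14, with another at 12 inside the gene. Cldn3 lies at chr5:134986214-134987472 on the plus strand, its start 39280 bases from that of Cldn4, and its match begins at 32, inside the first exon. Cldn7 lies at chr11:69964779-69967885 on the plus strand. The window at the start of the gene holds 0 matches, and the window of its inner start holds matches at -97 and -57. The stretches are written 5′ to 3′ on the strand of the gene, with the matches in capitals; for Cldn3 (chr5:134986238-134986257) and Cldn7 (chr11:69965357-69965376) only the 20 bases around 1 match are given.
Epcam: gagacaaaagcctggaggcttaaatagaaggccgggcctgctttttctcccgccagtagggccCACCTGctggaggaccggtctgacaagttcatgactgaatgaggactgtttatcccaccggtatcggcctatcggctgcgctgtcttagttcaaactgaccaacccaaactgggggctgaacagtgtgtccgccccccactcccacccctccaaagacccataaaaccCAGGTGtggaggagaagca
Cldn4: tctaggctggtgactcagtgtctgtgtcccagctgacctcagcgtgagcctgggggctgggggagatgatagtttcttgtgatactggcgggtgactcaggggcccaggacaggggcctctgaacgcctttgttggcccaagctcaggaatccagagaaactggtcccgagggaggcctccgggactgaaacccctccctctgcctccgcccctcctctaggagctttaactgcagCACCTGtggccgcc
Cldn3: ccacaggCAGGTGcaggggc
Cldn7: tccggttCAGGTGagtgtcc
These letters are a description of the sequence, and no binding was measured. No promoter entry was used for Cdh1, Cdh2, Zeb1 or Snai2. Cdh1 lies at chr8:106603351-106670246, Vim at chr2:13573927-13582826, Zeb2 at chr2:44983632-45117395 and Snai2 at chr16:14705852-14709385 (GRCm38).

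Of the 10 members, 4 had their highest level in tumour cells, and all 4 were epithelial (Epcam, Cldn3, Cldn4 and Cldn7). The share of all genes that peak in tumour cells was not counted. Keratins chose these cells, so the count is a description. Levels are given as counts scaled to equal totals (CPM), the summed UMIs of a gene per 1000000 summed UMIs of the type, with the exact 95% Poisson interval in brackets. Intervals here cover counting error only, not differences between mice. In bulk sums of this kind, fewer cells with a gene and less RNA per cell cannot be told apart, so shares of cells follow further down.

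Epcam reached 933 CPM [926 to 940.3] in tumour cells from 63302 UMIs, and 949 in library 1 and 679.7 in library 2. Keratinocyte-like cells (45 cells, all in library 1, gated by Krt5 and Lgals7) came next with 293 [255 to 336], and fibroblast-like cells held 4.02 [3.49 to 4.61]. Outside the epithelial types, the level followed the library that held the tumour cells. Neutrophil-like cells, which are not known to make Epcam, had 262, 10.5, 1.11 and 0.608 CPM in libraries 1 to 4, and fibroblast-like cells 64.8, 3.52, 0.161 and 0.233. Conventional dendritic cell-like (cDC-like) cells differed from them, with 133, 18.9, 52.7 and 10.5. In libraries 3 and 4, where 1 cell in all carried the keratin share of the gate, they thus stood above the fibroblast-like and neutrophil-like cells of the same library.

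Cldn3, Cldn4 and Cldn7 code for tight junction strands. Cldn4 stood at 324 CPM [320 to 329] in tumour cells (327 in library 1 and 283 in library 2), at 147 [120.3 to 179] in keratinocyte-like cells and at 2.20 in fibroblast-like cells. Cldn3 stood at 176 [172 to 179] in tumour cells (182 and 75.1), and no other type passed 19.2, the level of macrophage-like cells. Cldn7 stood at 104 [102 to 107] (108 and 51.3), followed by 12.9 in keratinocyte-like and 12.8 in macrophage-like cells, whose intervals overlap. All 3 claudins were higher in the tumour cells of library 1 than of library 2, and so was Epcam. The intervals of the libraries do not overlap for any of these 4 genes, but each library is 1 sample. How many of all genes differ in this way was not counted. Krt8 and Krt18, which chose the tumour cells, together stood at 6103 CPM in those of library 1 and 3682 in library 2. Per UMI of these keratins, Epcam (0.155 and 0.185) and Cldn4 (0.0535 and 0.0769) were lower in library 1. Cldn3 (0.0298 and 0.0204) and Cldn7 (0.0176 and 0.0139) were higher there.

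Cdh1 differed from the other epithelial members. Tumour cells held 54.6 CPM [52.9 to 56.4] and came in the fourth place, after keratinocyte-like cells with 122 [97.2 to 150.5], basophil or mast-like cells with 91.8 [63.9 to 128] and plasmacytoid dendritic cell-like (pDC-like) cells with 71.8 [57.9 to 87.9]. The intervals of the leading pair overlap, as do those of the basophil or mast-like and pDC-like cells. Unlike the other epithelial members it was lower in library 1 (53.0 [51.2 to 54.8]) than in library 2 (81.2 [72.6 to 90.6]). In leucocytes its level followed the tumour library in some types only. Macrophage-like cells had 18.4, 4.76, 1.94 and 1.39 CPM in libraries 1 to 4 and neutrophil-like cells 26.0, 3.44, 1.48 and 0.304, highest in library 1 as for Epcam. Basophil or mast-like cells of library 4 held 206 CPM and pDC-like cells 84.7, in a library with 0 tumour cells, and cDC-like cells had 12.2, 69.8, 16.9 and 11.9 in libraries 1 to 4. Monocyte-like cells had 40.0, 64.9, 3.51 and 3.99, higher in both libraries with tumour cells. Those of library 2 held 79 UMIs of Cdh1 and 26 of Krt8 and Krt18 together.

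**Figure D1:**
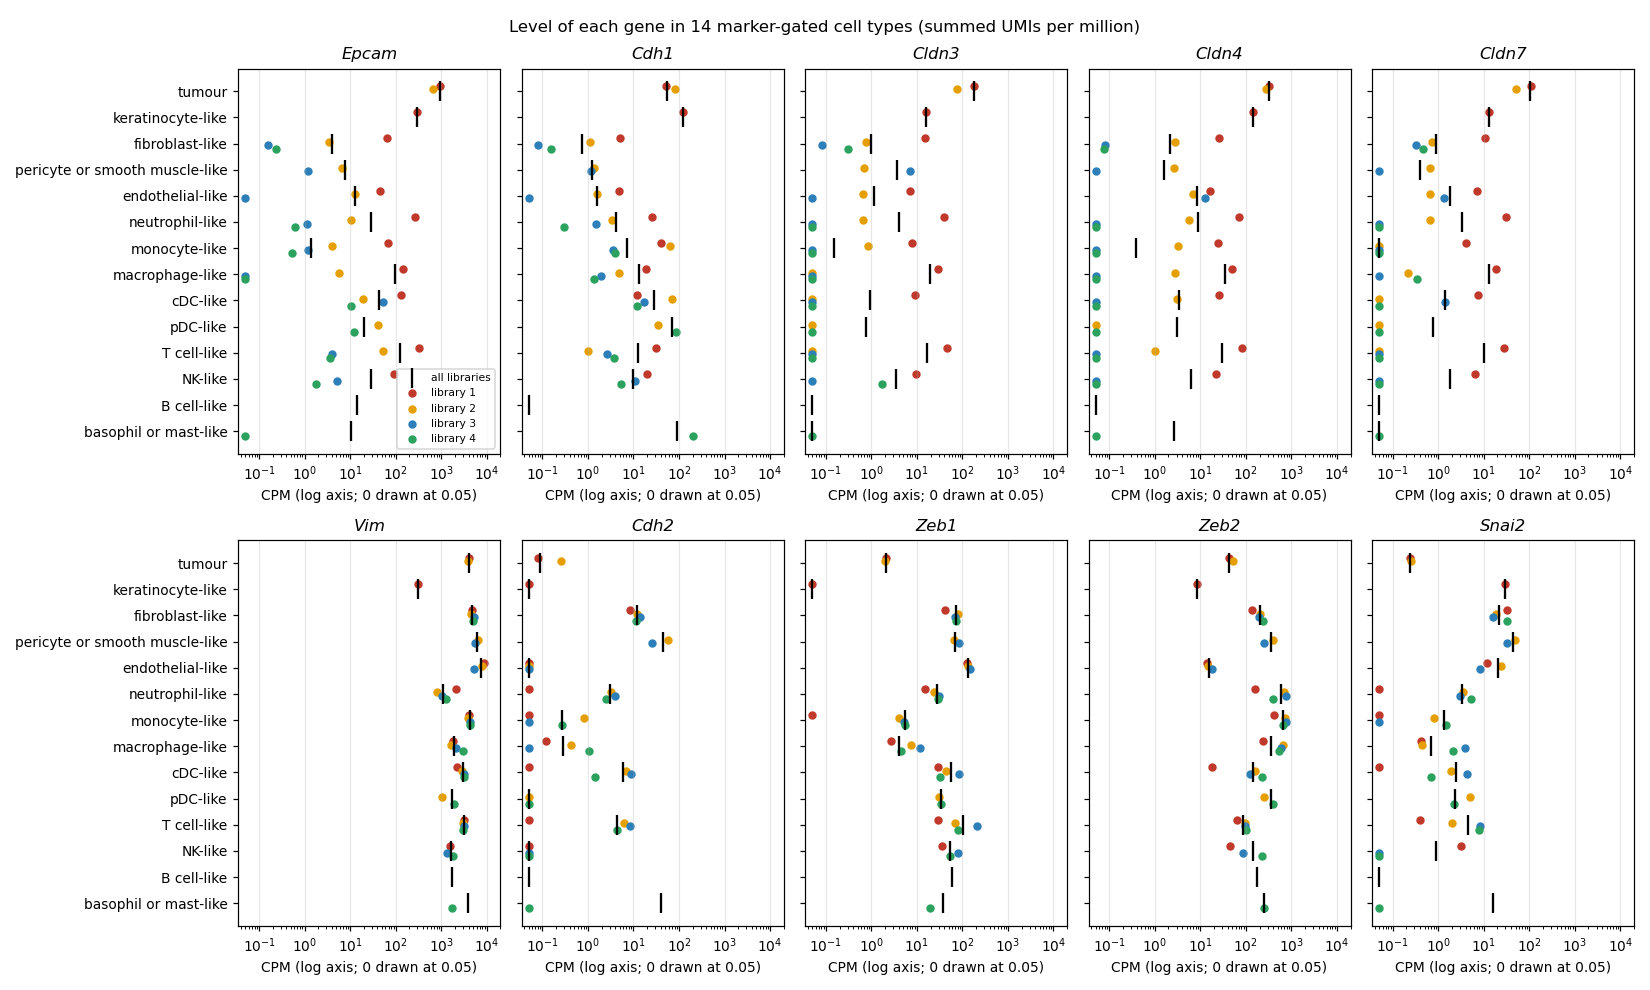
Level of each of the 10 genes in 14 cell types, as CPM of summed UMIs on a log axis with values of 0 drawn at 0.05. Black bars are all libraries together and points are single libraries with at least 20 cells of the type. Epcam, Cldn3, Cldn4 and Cldn7 peak in tumour cells at 933, 176, 324 and 104 CPM, and Cdh1 peaks in keratinocyte-like cells at 122. Tumour cells stand near the bottom for Zeb1 and Snai2. For Cdh2 they stand at 0.0884, rank 9 of the 14 types, above types with 0 UMIs.

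Vim was abundant in the tumour cells, at 4061 CPM [4046 to 4076] with 4077 in library 1 and 3799 in library 2. They held the fifth place among the 14 types. Endothelial-like cells led with 7361, then pericyte or smooth muscle-like cells with 6136, fibroblast-like cells with 4867 and monocyte-like cells with 4381. Keratinocyte-like cells, the other keratin-bearing type, were the lowest of all with 315 [275 to 359].

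The other 4 mesenchymal members were low or nearly absent in tumour cells. Cdh2 gave 6 UMIs in 3094 tumour cells (0.0884 CPM [0.0325 to 0.192]) and was highest in pericyte or smooth muscle-like cells, with 45.4 [37.4 to 54.5]. Basophil or mast-like cells held 39.3 [22.0 to 64.9], an interval that overlaps it, but all 15 UMIs came from 2 of 53 cells. All 20 such cells of library 4 gave 0 UMIs. Of the pericyte or smooth muscle-like cells, 56 of 148 carried a Cdh2 UMI. Fibroblast-like cells held 12.1. Snai2 gave 16 UMIs in tumour cells (0.236 [0.135 to 0.383]). It led in pericyte or smooth muscle-like cells with 42.9 [35.2 to 51.9], then in keratinocyte-like cells with 28.6 [17.5 to 44.2], which overlaps it, and in fibroblast-like cells with 21.7. So the keratinocyte-like and the tumour cells, both of epithelial kind, lay apart in Snai2 and in Vim in opposite directions.

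Zeb1 and Zeb2, the paired zinc-finger homeodomain repressors, had unlike distributions. Zeb1 led in endothelial-like cells with 134 CPM, followed by T cell-like cells with 101 (29.7, 69.8, 208 and 80.8 in libraries 1 to 4) and fibroblast-like cells with 73.2. Tumour cells held 2.09 [1.76 to 2.47] and keratinocyte-like cells 0 UMIs, which allows up to 4.29 CPM. Zeb2 was highest in monocyte-like cells with 668 and neutrophil-like cells with 598, followed by pericyte or smooth muscle-like cells with 362 [339 to 387] and macrophage-like cells with 356 [348 to 363], which overlap, while fibroblast-like cells held 207. Tumour cells held 43.1 [41.6 to 44.7], with 42.6 in library 1 and 52.0 in library 2, in the twelfth place of 14, above endothelial-like (15.3) and keratinocyte-like cells (8.59).

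The tumour cells were compared with the fibroblast-like cells, first pooled over all 4 libraries and then within libraries 1 and 2, on differences of log2(CPM + 10), which understate the change of low genes. The pooled values include the fibroblast-like cells of libraries 3 and 4, which held 0 tumour cells. A gene was called when the difference was at least 2-fold, among the 9142 genes with at least 10 CPM in either type. Of these, 8.39% were called higher in tumour cells and 15.1% higher in fibroblast-like cells. All 5 epithelial members were called higher in tumour cells, and 4 of the 5 mesenchymal members (Cdh2, Zeb1, Zeb2 and Snai2) higher in fibroblast-like cells. In the pooled values the epithelial members reached the minimum only in tumour cells, and Cdh2, Zeb1 and Snai2 only in fibroblast-like cells. A call of these could go only towards that type. Keratins and collagens chose the types, so the calls are a description and no test. Vim was not called, with a difference of -0.26 and a level 1.20-fold higher in fibroblast-like cells.

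Epcam differed by 6.07 on this scale and Cldn4 by 4.78, Cldn3 by 4.08, Cldn7 by 3.39 and Cdh1 by 2.59. Within library 1 the differences were smaller, at 3.68 for Epcam, 3.26 for Cldn4, 2.93 for Cldn3, 2.51 for Cldn7 and 2.07 for Cdh1. Its 120 fibroblast-like cells had 64.8 CPM of Epcam and the ratio of the levels was 14.6 [12.2 to 17.7], against 193 [156 to 242] in library 2. For the mesenchymal members the differences in libraries 1 and 2 were -2.10 and -2.88 for Zeb1, -1.45 and -1.78 for Zeb2, -2.03 and -1.48 for Snai2, and -0.87 and -1.09 for Cdh2. Of the 10 members, 9 had the same call in both libraries and 0 had opposite calls. The exception was Cdh2, which stayed under 10 CPM in both types of library 1. Over all genes tested, 6.97% were called higher in tumour cells and 13.3% in fibroblast-like cells of library 1. In library 2 these shares were 9.26% and 13.5%. Agreement between the libraries was not counted over all genes.

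**Figure D2:**
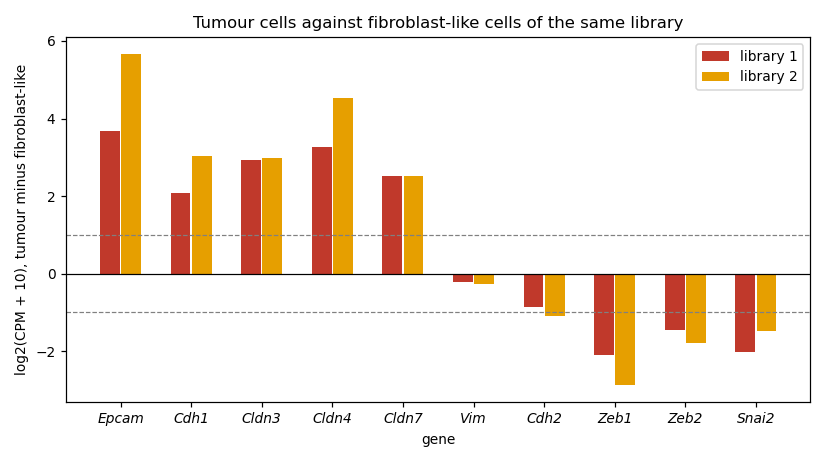
Difference between tumour cells and fibroblast-like cells of the same library for each gene, as log2(CPM + 10), tumour minus fibroblast-like, in libraries 1 and 2. Dashed lines mark a 2-fold difference. The 5 epithelial genes stand between 2.07 and 5.67, Vim at -0.23 and -0.27, and the other mesenchymal genes between -0.87 and -2.88.

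Other epithelial genes behaved like the members. Of 43 companions of epithelial cells, 25 reached 10 CPM in either type, of which 19 were called higher in tumour cells and 0 higher in fibroblast-like cells, with a median difference of 2.04 against -0.02 over all genes tested. Many of those called, such as Esrp1 and Grhl2, reached the minimum only in tumour cells, which keratins chose. The direction of these calls was thus set beforehand, and the count is a description. The number called higher in tumour cells was 17 within library 1 and 21 within library 2, against 6.97% and 9.26% of all genes tested there. The simple-epithelium keratin Krt7 led with 5.37 (530 against 3.05 CPM), followed by the serine protease inhibitor Spint2 with 4.63, the desmosome protein gene Perp with 3.65, the small GTPase gene Rab25 with 2.95 and the plakophilin gene Pkp3 with 2.79. Spint1 (2.70), St14 (2.53), the matriptase it inhibits, and Krt19 (2.52) followed. Among regulators that keep the epithelial state, the splicing factor Esrp1 was called with 1.89 (27.7 against 0.155 CPM) and the transcription factor Grhl2 with 1.32 (15.5 against 0.232). Grhl2 stood at 0.99 within library 1, just under the call. Esrp2, Ovol1 and Ovol2 stayed under the minimum, at 2.98, 7.27 and 1.84 CPM in tumour cells.

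The mesenchymal companions went mainly the other way, with exceptions. All 28 reached the minimum, 20 were called higher in fibroblast-like cells and 1 in tumour cells, with a median of -3.10. Many, such as Lox and Prrx1, reached it only in fibroblast-like cells, which collagen genes chose, so this count too is a description. The matrix and matrix-remodelling genes led, with -6.38 for the collagen cross-linking oxidase Lox, -5.83 for the gelatinase Mmp2, -5.40 for the proteoglycan Vcan, -5.36 for Sparc, -5.03 for Col5a1 and -5.02 for Loxl2. The mesenchymal transcription factor Prrx1 differed by -4.99 (2.14 against 375 CPM), and Tnc by -4.52.

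Snai1 and Twist1, which like Zeb and Slug proteins repress epithelial genes, were not called. Snai1 stood at 30.0 CPM in tumour and 57.9 in fibroblast-like cells (-0.76). Twist1 stood at 70.5 and 97.8 (-0.42), and it was called higher in the fibroblast-like cells of library 1 (-1.21), while library 2 had 98.0 and 98.3 CPM. Fibronectin (Fn1) stood at 1527 CPM in tumour and 1571 in fibroblast-like cells pooled (-0.04), and at -0.64 and -0.53 within libraries 1 and 2, not called in any of them. The companion called higher in tumour cells was Foxc2, a forkhead factor (16.3 against 1.20 CPM, 1.23), though its difference was 0.99 within each of libraries 1 and 2. The calcium-binding S100a4 stood at 0.88 pooled and was called higher in tumour cells within both libraries, at 2.53 and 1.94.

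To see whether both kinds of gene lay in the same cells, each cell was thinned to 5000 UMIs and counted for genes with at least 1 UMI. UMIs of both Epcam and Vim were found in 2514 of 3094 tumour cells, or 81.3% [79.8 to 82.6, exact binomial]. The share was 81.5% in library 1 and 74.5% [64.9 to 82.6] in library 2. Vim without Epcam was found in 16.3% of tumour cells, Epcam without Vim in 2.39% and neither in 0.0970%. The median tumour cell held 3 UMIs of Epcam and 16 of Vim per 5000.

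RNA released by broken cells puts UMIs of a gene into cells that do not make it, so the same shares were taken in types that should lack Epcam. Fibroblast-like cells had both genes in 2.45% of cells over all libraries, but in 28.2% of the 103 deep enough cells of library 1 and 1.75% of 916 in library 2. Macrophage-like cells had both in 22.8% in library 1 and 2.80% in library 2. Before thinning, the median cell had 19348 UMIs among tumour, 23146 among fibroblast-like and 7628 among macrophage-like cells. The share in tumour cells was above those of fibroblast-like and macrophage-like cells in both libraries. Both of these types held Vim, at 4867 and 1964 CPM over all libraries, so they give no level for free Vim RNA. In keratinocyte-like cells, the type lowest in Vim, 79.3% of 29 cells carried a Vim UMI at this depth, with a median of 1 UMI. The median in tumour cells of library 1 was 16. The share of keratinocyte-like cells with both genes stands with the plot of these shares by type. The part of free RNA in the Vim of tumour cells was not tested. Neutrophil-like and T cell-like cells of library 1 held more Epcam than its fibroblast-like cells, and their shares were not compared here.

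**Figure D3:**
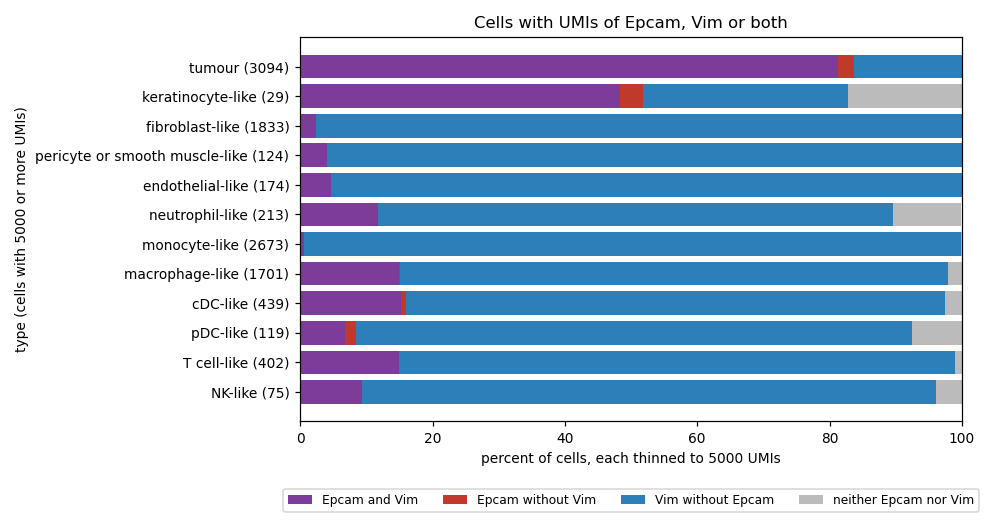
Share of cells of each type with UMIs of Epcam, Vim, both or neither, each cell thinned to 5000 UMIs and the number of cells at that depth in brackets. Both genes were found in 81.3% of tumour cells, against 48.3% of the 29 keratinocyte-like and 2.45% of the fibroblast-like cells. Shares are over all libraries. The tumour cells came almost wholly from library 1, where the share of fibroblast-like cells was higher, as given in the text.

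Of the tumour cells thinned in this way, 91.5% carried a UMI of any epithelial member and 71.1% of 2 or more. Cldn4 was found in 58.0%, Cldn3 in 41.2%, Cldn7 in 31.9% and Cdh1 in 22.2%. A UMI of Zeb1, Zeb2, Snai2 or Cdh2 was found in 18.6% [17.2 to 20], with 18.7% in library 1 and 15.7% in library 2. Nearly all of this was Zeb2, found in 17.7%, since without Zeb2 the share was 1.03%. In fibroblast-like cells the shares were 76.5% and 39.4%.

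Free RNA was also judged by the levels in other types of the same library. In library 1, Zeb1 in tumour cells (2.10 CPM) was not above macrophage-like cells (2.66 [1.93 to 3.57]), and Snai2 (0.235) and Cdh2 (0.0782) were not above them either (0.423 and 0.121), so these 3 were not told apart from background at this depth. At 42.6 CPM in the tumour cells of library 1, Zeb2 was above keratinocyte-like cells (8.59 [3.15 to 18.7]), cDC-like cells (18.3 [9.46 to 32.0]) and endothelial-like cells (14.2 [5.22 to 31.0]) of the library. Fibroblast-like cells of the library, at 134, stood above the tumour cells, as did its macrophage-like, neutrophil-like, monocyte-like and T cell-like cells. NK-like cells, with 14 UMIs of Zeb2, were close to the tumour cells. The complement genes C1qa, C1qb and C1qc mark macrophages and served to gate the macrophage-like cells. Per UMI of these genes, tumour cells held 0.208 UMIs of Zeb2 and macrophage-like cells 0.0209. Endothelial-like (0.0698), cDC-like (0.0779) and T cell-like cells (0.225) were above macrophage-like cells too. Per UMI of S100a8 and S100a9, which mark neutrophils and served to gate the neutrophil-like cells, tumour cells held 0.203 and neutrophil-like cells 0.00165. Here too endothelial-like (0.0706), cDC-like (0.0622) and T cell-like cells (0.0541) were above neutrophil-like cells. Monocyte-like cells, the type highest in Zeb2, held 1.38 and 0.451 by the same measures, above the tumour cells. A ratio to the genes that chose a type is low in that type by construction, so these gaps are a description. The part of free RNA in the Zeb2 of the tumour cells was not tested.

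The same ratio was taken for the epithelial members in cells other than tumour cells. Cells with the keratin share of the gate and Ptprc UMIs were not removed from these types, here or in the levels above. Krt8 and Krt18 together stood at 1852 CPM in neutrophil-like and 1621 CPM in T cell-like cells of library 1. These keratins chose the tumour cells, which lowers any ratio to them in tumour cells by construction. Per UMI of Krt8 and Krt18, Epcam stood at 0.155 in the tumour cells of library 1. Of the other types there, 8 lay between 0.0984 (endothelial-like) and 0.212 [0.166 to 0.268] (cDC-like), on both sides of it, while keratinocyte-like cells held 0.619 [0.518 to 0.739]. In library 2 the tumour cells held 0.185 and 6 other types 0.163 to 0.255, while cDC-like cells held 0.508 [0.316 to 0.802], T cell-like cells 2.22 [1.33 to 3.80], and pDC-like cells 8 UMIs of Epcam against 4 of the keratins. Cdh1 stood at 0.00868 in the tumour cells of library 1 and higher in all other types there. These lay from 0.0104 [0.00125 to 0.0379] in endothelial-like cells to 0.111 [0.0515 to 0.214] in monocyte-like and 0.257 in keratinocyte-like cells. In some the interval reaches the ratio of the tumour cells. In library 2 the tumour cells held 0.0221. The other types there lay from 0.0286 [0.00916 to 0.0680] in endothelial-like to 1.88 [1.36 to 2.63] in cDC-like and 3.04 [1.93 to 4.93] in monocyte-like cells.

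**Figure D4:**
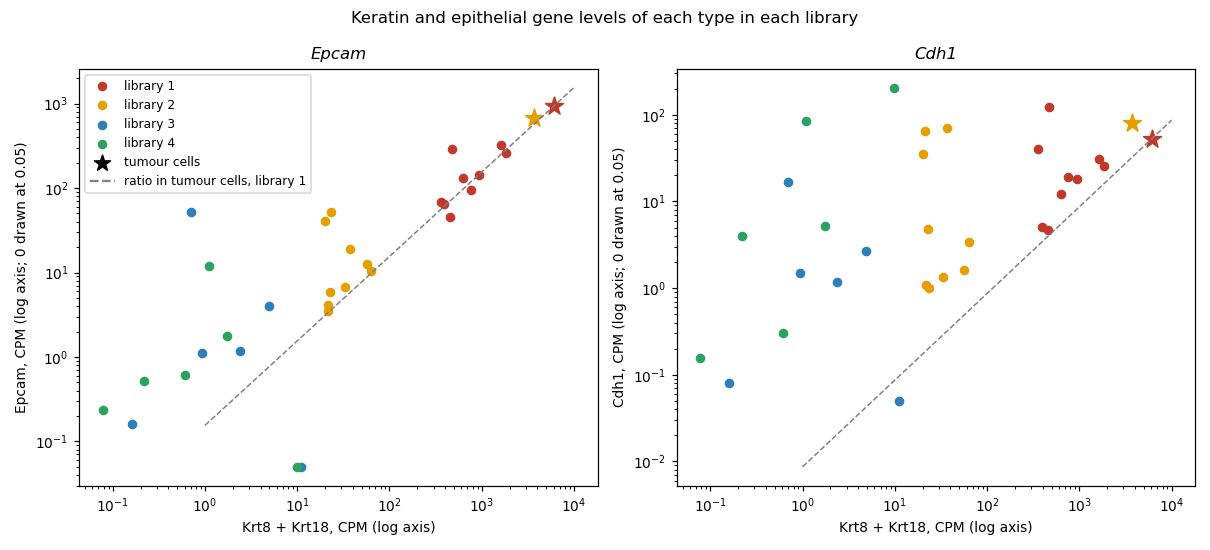
Epcam (left) and Cdh1 (right) against the keratins Krt8 and Krt18 in each type and library, in CPM on log axes with a gene level of 0 drawn at 0.05 and points of keratin level 0 not drawn. Stars are tumour cells, and the dashed line is their ratio in library 1, 0.155 for Epcam and 0.00868 for Cdh1. For Epcam the other types of library 1 lie about the line, except keratinocyte-like cells at 0.619, while for Cdh1 nearly all points lie above it. The keratins chose the tumour cells, which lowers their ratio by construction.

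Among the tumour cells, the epithelial genes and Vim varied in opposite directions. Correlations are given as a description over the 2992 tumour cells of library 1 and the 102 of library 2, each thinned to 5000 UMIs; the cells of a library share its preparation and free RNA. All 10 pairs of epithelial members had Pearson coefficients above 0 in both libraries (0.07 to 0.42 and 0.12 to 0.41), and all 5 pairs of an epithelial member with Vim were below 0. Epcam with Vim stood at -0.45 in library 1 and -0.23 in library 2, Cldn4 with Vim at -0.38 and -0.36, Cldn3 with Vim at -0.34 and -0.28 and Cldn7 with Vim at -0.33 and -0.33. Cdh1 with Vim was close to 0, at -0.09 and -0.10. In such sparse counts, weak coefficients carry little. The share of other gene pairs above or below 0 was not counted, so the counts of pairs are a description.

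The tumour cells of library 1 were therefore ranked by the share of Vim in their UMIs and cut into 5 bins of 598 or 599 cells, from at most 0.109% in the lowest to at least 0.625% in the highest. Vim chose the bins, and its rise from 569 to 8930.2 CPM is no result. This ranking was made after the values were seen. Over 7911 genes with at least 10 CPM in either end bin, 1.10% were called at least 2-fold higher in the cells lowest in Vim and 1.15% in the cells highest in Vim.

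Epcam fell in steps from 1494 CPM [1471 to 1517] in the lowest bin through 1297, 1045 and 651 to 404 in the highest. Cldn4 went from 607 through 439, 362 and 194 to 101, Cldn3 from 311 through 252, 211 and 118 to 51.4, and Cldn7 from 219 through 152, 92.9 and 60.2 to 41.2. These 4 of the 5 epithelial members were called lower in the cells highest in Vim, with differences of -1.86, -2.48, -2.38 and -2.16. Cdh1 moved less, from 67.0 to 34.8 (-0.78), and was not called. Its lowest bins did not differ beyond their counting error (67.0 and 67.8).

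Zeb2 moved the other way, with 24.6, 30.6, 37.9, 55.3 and 59.7 CPM, and was called (1.01, a ratio of 2.43 [2.11 to 2.80]). Zeb1 stayed between 1.29 and 3.19 in all 5 bins, below the 10 CPM minimum. Krt8 had 2250.1 CPM in the lowest and 2475 in the highest bin, and Krt18 had 3648 and 3456. As these keratins chose the tumour cells, cells low in them could not be in any bin, and nothing is read from their levels.

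**Figure D5:**
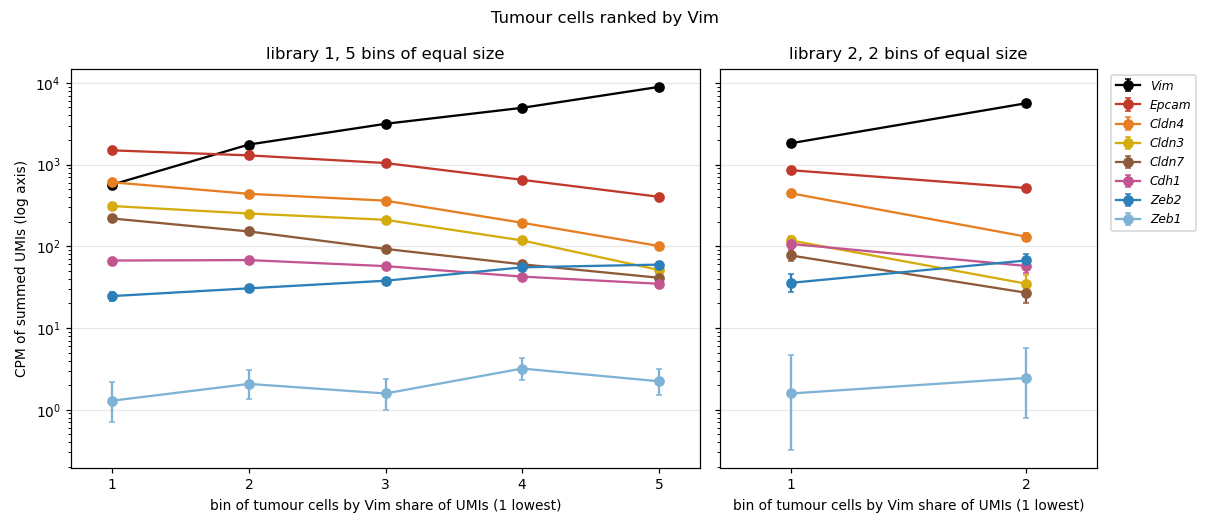
Tumour cells ranked by their share of Vim, 5 bins in library 1 and 2 bins in library 2, with the level of each gene as CPM of summed UMIs on a log axis and bars for the exact 95% Poisson interval. From the lowest to the highest bin of library 1, Epcam goes from 1494 to 404, Cldn4 from 607 to 101 and Zeb2 from 24.6 to 59.7.

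In library 2, with its 102 tumour cells cut into 2 bins of 51, the directions were alike. Epcam went from 854 to 517 CPM (-0.71, not called), Cldn4 from 446 to 131 (-1.70), Cldn3 from 118 to 34.8 (-1.52), Cldn7 from 77.3 to 27.0 (-1.24) and Cdh1 from 107 to 57.4. Thus 3 of 5 epithelial members were called, against 0.265% of the 8316 genes tested there, and 0.914% were called in the other direction. Zeb2 went from 35.7 to 67.2 (0.76) and was not called. The bins of library 2 are wider than those of library 1, so the sizes are not compared.

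Companion genes showed how far the pattern reached. In library 1, 29 of the 43 epithelial companions reached the minimum, 28 of them were lower in the highest than in the lowest Vim bin, 10 were called so and 0 were called the other way, with a median of -0.77 against 0.03 over all genes. Rab25 fell by 2.92 and the polarity gene Crb3 by 1.54. The junction genes Jup, Dsg2, Dsp and Perp fell by 1.44, 1.40, 1.36 and 1.23, the transcription factor Elf3 by 1.29, Esrp1 by 1.18 and Ovol1 by 1.09. Grhl2 stood at -0.86, not called. Esrp1 and Rab25 were called lower in library 2 as well.

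Of the mesenchymal companions, 18 reached the minimum in library 1, and 5 were called higher in the cells highest in Vim, with S100a4 at 2.23, Sparc at 1.45, the actin-binding Tagln at 1.42, Col6a1 at 1.18 and the receptor kinase Axl at 1.00. Fn1 was called in the opposite direction, with 2308 CPM in the lowest and 968 in the highest bin (-1.24), while library 2 had 1422 and 1371. Twist1 stood at 0.96 and Snai1 at 0.53, neither called. None of the 21 mesenchymal companions at the minimum was called in library 2.

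Other measures moved along the bins too. The proliferation genes Mki67 and Top2a went from 23.0 to 79.9 and from 76.0 to 204 CPM in library 1, and from 10.5 to 91.8 and from 37.3 to 157 in library 2. With cycling cells (at least 2 UMIs of the pair) left out, 4 epithelial members were called as before. The basal keratin Krt14 went from 460.5 to 115 CPM and Lgals7 from 228 to 95.2 in library 1. In library 2, Krt14 went from 310.1 to 229.7 and Lgals7 the other way, from 6.83 to 13.7. The collagen gene Col1a1 rose from 24.0 to 75.8 CPM, against 12875 in the fibroblast-like cells of library 1, and with every cell that held a Col1a1 UMI left out the count was again 4. The macrophage genes C1qb (75.4 and 56.4) and Lyz2 (111 and 88.2) and the neutrophil gene S100a8 (84.6 and 80.0) were not higher in the highest bin of library 1. In library 2, C1qb was higher there (8.41 and 19.1, a ratio of 2.28 [1.24 to 4.36]), while Lyz2 had 56.2 and 55.0, S100a8 101 and 96.2 and Col1a1 246 and 273. The part of other cells' RNA in the pattern was not tested beyond these values. The median cell had 15632 UMIs in the lowest and 21506 in the highest bin, and thinned to equal depth the count stayed at 4.

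A group of tumour cells had neither Epcam nor Cldn4 left after thinning, 373 of the 2992 in library 1 (12.5%). As these genes chose them, their other values are given as a description. They held 6361 CPM of Vim against 3521 in the rest, 70.2 of Zeb2 against 39.0, 20.4 of Cldn3 against 207 and 1907 of Krt8 against 2572. C1qb stood at 83.6 [71.0 to 97.9] and 69.2 [64.8 to 73.8], and Col1a1 at 47.7 [38.3 to 58.7] and 38.9 [35.6 to 42.5]. The intervals overlap for both genes, and Lyz2 stood at 107 in both sets. The part of RNA of macrophages and fibroblasts in the difference was not tested. Tumour cells of library 1 with at least 2 UMIs of Mki67 and Top2a left after thinning, a smaller set (371 cells, 12.4%) than the cycling cells counted before thinning, held 887 CPM of Epcam against 974, 204 of Cldn4 against 357 and 4750.4 of Vim against 3751.

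Along the keratin share of the gate the epithelial members rose, Cdh1 only above the lowest bin, and Vim did not. As this share chose the tumour cells, the bins by it are a description. Over 5 bins of the tumour cells of library 1 by Krt8 and Krt18, Epcam went through 513, 817, 952, 1185 and 1267 CPM, while Vim had 4202, 3951, 4066, 4195 and 3967. Cldn3 rose from 75.6 to 292 and Cldn4 from 185 to 477, and Zeb2 went from 66.6 to 29.0. Cdh1 had 38.5 in the lowest bin, then 56.1, 54.0, 57.1 and 58.7. At the edge of the gate, the 178 cells just inside it (0.2% to 0.25% keratin) held 367 CPM of Epcam and the 112 cells just outside (0.15% to 0.2%) held 353.

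The genes whose levels were most like each member were taken over 38 sums of a type in a library, among 13464 genes, by the Pearson coefficient of log2(CPM + 10). These sums share libraries and their free RNA, so the coefficients are descriptions. Cldn3 and Cldn7 were nearest to each other (0.987), and Krt7 was among the 3 nearest genes of Epcam (0.936), Cldn3 (0.956), Cldn4 (0.964) and Cldn7 (0.964). For Cdh1 the highest coefficient was 0.688 (Gm26724), the lowest of the 10 members. Cdh2 lay nearest to Pcdh18 (0.930), Rem1 (0.926) and the pericyte receptor Pdgfrb (0.905), and Snai2 to Nradd (0.917). Zeb2 lay nearest to Metrnl (0.855), Zeb1 to Fam92a (0.824) and Vim to Slc12a4 (0.819).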

How the data were processed

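The authors deposited 1 matrix of whole-number UMI counts, not scaled per cell, that joins the 4 libraries. Cell Ranger made it, given as version 2.1.1 with mm10 in the submitters' processing notes, 3.0.2 in the protocol and 6.1.2 in the file header. All 55450 gene identifiers were found in GENCODE vM21 (GRCm38), which gave positions. Of depth equalisation between libraries nothing was stated.

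Following the methods, the limits on cells were at least 300 genes and at most 15% mitochondrial UMIs. UMIs were summed per marker-gated type and scaled to CPM. Shares were taken after thinning each cell without replacement to 5000 UMIs (1000 in the table of all types), with exact Poisson and Clopper-Pearson 95% intervals, in Python 3.11.15 (numpy 2.4.6, scipy 1.17.1, pandas 2.3.3). The members, companion lists and tests were chosen with earlier results of these data known. Named genes were the members, the 3 genes nearest to each, the called companions by size (at most 8 a list) and Snai1, Twist1, Grhl2, Ovol1, Ovol2, Esrp1 and Esrp2. Fn1 and S100a4 in the comparison with fibroblast-like cells, and C1qb, Lyz2 and S100a8, were added after their values were seen. One companion gene is not reported here. Cd3e was left out of the T cell gate after its values were seen. Doublets were scored with Scrublet (scanpy 1.11.5) and kept. From library 1 to library 4 it called 2.75%, 0.0116%, 0% and 1.73% of cells, so it did not work in libraries 2 and 3. The steps were tested on simulated data. Settings tried were other gate, filter and depth limits, pseudocounts, doublet removal and leaving out each library.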

Additional observations from a re-analysis of the deposited data

Results flagged for a closer look

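Cells outside the tumour gate that carried its keratin share also held Epcam. The 657 cells with at least 0.2% of UMIs from Krt8 and Krt18 that carried Ptprc UMIs, 624 of them in library 1, held 788 CPM of Epcam and 4186 CPM of Vim. The 493 cells of that keratin share with no Ptprc UMI and under 5000 UMIs held 628 CPM of Epcam. Neither set is counted among the tumour cells, but cells of either that passed a single other gate stayed in that type above. Both sets stood out because Epcam was far over the 4.02 CPM of the fibroblast-like cells of all libraries. It was also over the 64.8 CPM of those in library 1. Keratins, which went with Epcam in the tumour cells, chose both sets. Whether they are tumour cells, doublets or cells with free RNA was not tested.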

How the results depend on the processing

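The counts of 4 members highest in tumour cells, 5 higher in tumour cells and 4 higher in fibroblast-like cells were the same under all alternatives run (12, 14 and 14), which changed the gates, filters, pseudocount, minimum level, doublet removal and libraries. The number of tumour cells was 1805 with a keratin limit of 0.5% and between 102 and 3094 with 1 library left out, 102 being without library 1, and reached 3303 at most. The share of tumour cells with Epcam and Vim UMIs (81.3%) was 79.6% at a keratin limit of 0.1%, 86.7% at 0.5%, 74.5% to 81.5% with 1 library left out, 95.0% with no thinning, 59.9% thinned to 2000 UMIs and 64.4% with 2 or more UMIs of each gene. The share with Zeb1, Zeb2, Snai2 or Cdh2 (18.6%) was 16.0% at a keratin limit of 0.5%, 15.7% to 18.7% with 1 library left out, 51.6% with no thinning, 8.27% thinned to 2000 UMIs and 2.71% with 2 or more UMIs. Fewer UMIs per cell or a higher minimum lower such shares by construction, and without library 1 they rest on 102 cells. The count of 4 epithelial members higher in the tumour cells lowest in Vim was 3 or 4 over 9 alternatives, all chosen after seeing the data, with 3 in library 2. No paired analysis was possible because no library could be tied to a sample. Mouse-to-mouse spread is unknown, and tumour cells came almost wholly from 1 library.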

Other observations

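Cd3e, a chain of the T cell receptor complex, was high in fibroblast-like cells without Ptprc UMIs, at 12.9, 353, 197 and 31.8 CPM in libraries 1 to 4, against 481 to 576 in T cell-like cells. Its partners were not, since Cd3d, Cd3g and Trac stood at 0.599, 0.387 and 1.64 CPM in fibroblast-like cells and at 609.7, 1038 and 336 in T cell-like cells. In tumour cells, Cd3e stood at 1.56 CPM in library 1 and 9.14 in library 2.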
